A study of Mus musculus with 24 samples.

Results

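The miRNAs described here are the late entries of the mouse miRNA catalogue together with miR-690 and miR-1195. They were chosen by name: every mature mouse miRNA numbered miR-1920 or higher, apart from the arms of miR-3072, with miR-690 and miR-1195 added by name. This rule took 773 of the 1531 mouse entries in the count tables. Of these, 60 had a mean above 10 CPM, reads scaled to a common total of mouse miRNA reads per library, in at least 1 brain region. The other 713 stayed at or below that level in every region, although 196 of them exceeded 1 CPM somewhere. MiR-3960, at 10.1 CPM in its highest region, was just above the minimum and miR-6970-5p, at 8.81 CPM, was just below it. MiR-1969, one of the late entries, had regional means of 1.40 to 3.16 CPM and was not tested.

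The libraries came from CD1 mouse pups at postnatal day 9. In the hypoxic-ischemic brain injury (HIBI) group the right common carotid artery was cauterized, and after 2 h of recovery the pups spent 30 min in 8% oxygen. Sham pups had the same anesthesia and neck dissection with the artery left intact, and stayed in room air. Right cortex, striatum/thalamus, and cerebellum were taken 30 min after injury from 4 HIBI pups (numbers 1, 4, 5, and 7) and 4 sham pups (numbers 2, 3, 6, and 8) of both sexes, giving 24 libraries. The cerebellum lies outside the carotid supply and therefore saw hypoxia without carotid occlusion. The tissue was bulk tissue, so that fewer cells of a type and less RNA per cell cannot be told apart.

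A miRNA is cut from a hairpin transcript by the enzymes Drosha and Dicer, and the mature strand guides Argonaute to mRNAs that pair with its seed, bases 2 to 8. Many entries added late to the catalogue rest on small RNA sequencing alone, and some of them match tRNAs, small nucleolar RNAs (snoRNAs), ribosomal RNA, or interspersed repeats, whose breakdown also yields short RNAs. Mouse transcripts carry many copies of the short interspersed elements B1 and B2, so a read from a broken transcript can be counted on a miRNA with the same letters. The question asked of these entries was whether they rise together within a pup, as fragments of broken RNA would.

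The mature sequences of the members that the results turn on are given 5′ to 3′, with the seed in capitals. They are from RefSeq, on mouse build GRCm38.p6, where 53 of the 60 members were matched. The sets are shown because they differ in whether a stretch of their letters was found in annotated transcripts of many other genes. The members of the following set shared a stretch of at least 16 bases with annotated transcripts of 10 or more other genes.
miR-1195: uGAGUUCGaggccagccugcuca
miR-690: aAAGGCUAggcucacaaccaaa
miR-3473a: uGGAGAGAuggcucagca
miR-3473b: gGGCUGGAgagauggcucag
miR-3473e: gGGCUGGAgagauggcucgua
miR-5126: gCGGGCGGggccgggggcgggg
miR-5128: cAAUUGGGgcuggcgagauggcu

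The stretch was found in 749 other genes for miR-3473b, 692 for miR-1195, 612 for miR-3473a, 606 for miR-3473e, 29 for miR-5128, 12 for miR-690, and 10 for miR-5126. The whole mature sequence of miR-3473b was present in transcripts of 343 genes and that of miR-3473a in 146. Of the 53 members with a sequence, 7 (13.2%) shared such a stretch, against 4 of 354 (1.13%) other entries above the minimum. MiR-3473b and miR-3473e had the same seed, and miR-3473a shared 16 bases with miR-3473b, so that their reads could have been split between them.

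MiR-1195 lies at chr17:70860558-70860580 on the minus strand, antisense within an intron of the pseudogene Gm9320. MiR-690 lies at chr16:28599940-28599961 (minus strand) in an intron of Fgf12, which encodes an intracellular regulator of sodium channels. The 3 miR-3473 entries lie in introns, miR-3473a of Syap1 at chrX:162874920-162874937 (minus), miR-3473b antisense to Ccdc162 at chr10:41670774-41670793 (plus), and miR-3473e of Rbks at chr5:31667296-31667316 (minus). MiR-5126, all of whose bases were G or C, lies antisense to a UTR of Dner, a ligand of Notch, at chr1:84695890-84695911 (plus). MiR-5128 is in an intron of Strbp at chr2:37688212-37688234 (minus).

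The next set holds the other members with a sequence that the injury results turn on.
miR-3963: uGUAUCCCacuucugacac
miR-3968: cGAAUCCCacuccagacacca
miR-6240: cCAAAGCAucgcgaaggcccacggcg
miR-3093-5p: cGCACCCCgcggagcucacacu
miR-6538: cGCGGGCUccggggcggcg
miR-1983: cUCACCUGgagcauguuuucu

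MiR-3963 (chr3:151023839-151023857, minus) and miR-6240 (chr5:114851973-114851998, plus) lie outside other annotated genes. MiR-3968 (chr11:115447969-115447989, minus) is antisense to coding sequence of Trim80. It shared 8 letters in a row with miR-3963 and ends in CCA, the triplet that also closes mature tRNAs, as did the sequences of 3 of the 53 members. MiR-1983 (chr13:21896930-21896950, minus) overlapped the tRNA gene n-TItat14. The search of annotated transcripts gave 0 genes for miR-1983, so a member without a match there can still overlap a tRNA gene. MiR-3093-5p (chr3:88215186-88215207, plus) is in an intron of the noncoding Gm3764, and miR-6538 (chr12:26414970-26414988, minus), with 94.7% G and C, is in an intron of Rnf144a.

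Over all members with a sequence, the median share of G and C was 58.3%, against 47.8% in the 354 others. Of the 53, 26 lay in introns and 17 in exons, UTRs, or coding sequence. The other 10 had no other gene at their first listed position, tRNA and miRNA genes aside. They include miR-1983, which overlaps a tRNA gene, and miR-3074-5p, which has another position in an intron of Fancc. MiR-3535 and miR-3068-3p lay in annotated snoRNA genes. MiR-3074-5p is transcribed opposite the hairpins of miR-24, miR-3071-3p opposite miR-136, and miR-3544-3p opposite miR-337.

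The members held a small part of each library. All 773 together took between 0.743% and 1.86% of the mouse miRNA counts, and the members above the minimum held 94.7% to 95.7% of that. A read spans a whole mature miRNA, so CPM levels were compared without a length correction. MiR-3968 was the most abundant in every region, with 30.9%, 30.8%, and 34.4% of all member counts in the cerebellum, striatum/thalamus, and cortex. MiR-1983 came second over sham and HIBI libraries together, with 16.9%, 21.0%, and 28.2%. In the cerebellum miR-2137 was above miR-1983 in sham pups, with means of 1859 and 1372 CPM, and below it in HIBI pups, with 1220 and 1993 CPM. The third was miR-2137 in the cerebellum (15.2%), miR-3099-3p in the striatum/thalamus (9.23%), and miR-3059-5p in the cortex (5.25%).

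Library depth ranged from 1254185 to 3406624 mouse miRNA counts, so that 10 CPM corresponded to 12.5 to 34.1 counts. The brain miRNAs miR-124-3p, miR-9-5p, and miR-128-3p were present in every library. The hindbrain miRNAs miR-10a-5p and miR-10b-5p summed to 474 to 1835 CPM in the cerebellum and 37.3 to 267 CPM in the other regions. Among markers of other tissues, 2 of 3 tested erythrocyte miRNAs were counted lower after HIBI in the cerebellum, where the list of 5 summed to 1233 to 2364 CPM in sham and 930 to 1353 CPM in HIBI pups. Of the 3 skeletal muscle miRNAs 1 was counted higher there, with sums of 447 to 602 and 345 to 651 CPM. In the striatum/thalamus 1 of 6 tested choroid plexus and ciliated epithelium miRNAs was counted higher, with sums over 7 of 1902 to 2625 and 1928 to 4714 CPM. No such marker was counted in the cortex, although 1 choroid plexus and ciliated epithelium marker was at 0 in every HIBI library there and in the HIBI cerebellum, and 1 erythrocyte marker in the HIBI striatum/thalamus. The part of these cells in the results was not tested.

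HIBI was compared with sham in each region to ask which miRNAs had changed 30 min after injury. Above the minimum of 10 CPM the cortex had the most late entries that differed, and there all of them were higher after HIBI. The criterion for differential expression was an unadjusted p under 0.05 in edgeR's quasi-likelihood test together with a difference of more than 1.5-fold, and miRNAs that met it are called counted. By this criterion 9 of 41 members tested were higher in the cortex (miR-3963, miR-3473a, miR-1957a, miR-1195, miR-6240, miR-690, miR-3968, miR-3093-5p, and miR-5126) and 0 were lower. Over all 410 miRNAs tested in the cortex, 3.17% were counted higher and 0.244% lower. Among the 369 that were not late entries, 4 were higher. Without miR-690 and miR-1195, which were chosen with their cortical values known, the count was 7 of 39. MiR-3963 and miR-1957a passed the minimum through their HIBI libraries alone. Among members with both group means above 10 CPM the count was 7 of 34, or 5 of 32 without the pair added by name, against 2.84% of the 388 miRNAs of any kind that met this condition. The members were not picked independently of these data, and the count is a description.

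**Figure D1:**
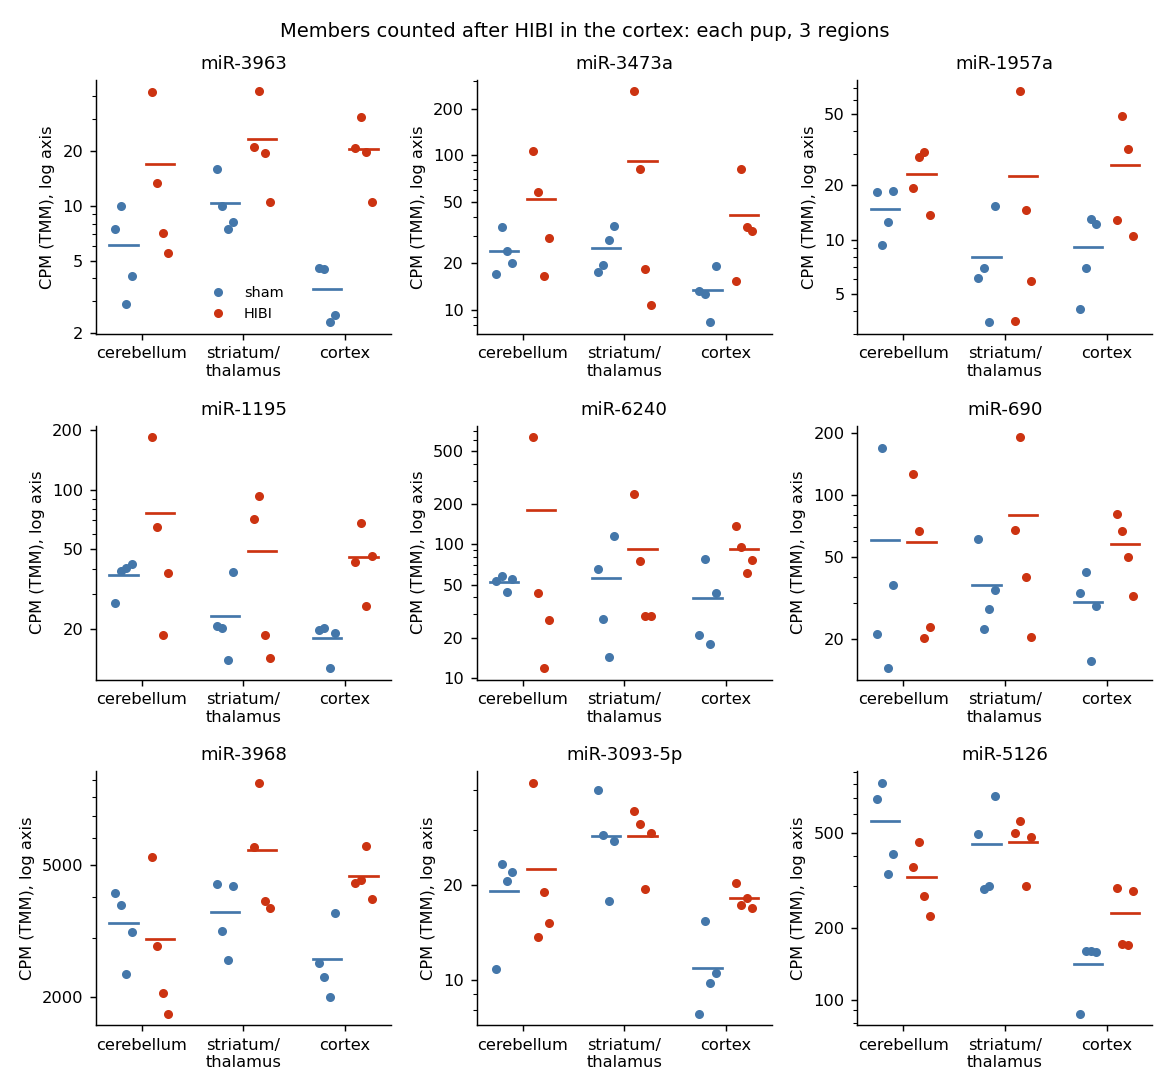
CPM on a log axis in each library for the 9 members counted after HIBI in the cortex, by region, with sham pups in blue, HIBI pups in red, and horizontal bars at group means. In the cortex all 4 HIBI pups lie above all 4 sham pups for miR-3963, miR-1195, miR-3968, miR-3093-5p, and miR-5126, while the groups overlap in the other regions.

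In the sentences that follow, CPM values are scaled by TMM within the region and run over sham pups 2, 3, 6, and 8 and then over HIBI pups 1, 4, 5, and 7. MiR-3963 had the largest cortical fold-change of the members. It stood at 4.58, 4.53, 2.30, and 2.52 CPM in sham cortex and at 20.8, 30.5, 19.8, and 10.5 CPM in HIBI cortex. Every HIBI pup was above every sham pup. The log2 fold-change was 2.53 ± 0.41 (SE, n = 4 pups per group; edgeR adjusted p = 0.0222 over all 410 miRNAs), a 5.78-fold difference. The exact permutation p was 0.0286, the smallest that 70 arrangements of 4 against 4 pups can give. The values rested on 6 to 61 reads per library, and with a sham mean of 3.49 CPM miR-3963 passed the minimum only through its HIBI libraries. With the minimum at 1 CPM, which both of its group means exceeded, the log2 fold-change was 2.52 ± 0.42 (edgeR adjusted p = 0.0207). The exact permutation p was also 0.0286 for miR-3968, miR-3093-5p, and miR-5126 in the cortex. It was 0.0571 for miR-3473a, 0.0857 for miR-6240, and 0.143 for miR-1957a there. MiR-1195 and miR-690, added with their values known, are left out. For members counted in the other regions this permutation p ran from 0.0571 for miR-3963 to 0.571 for miR-6538, both in the striatum/thalamus.

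MiR-3968, which shares letters with miR-3963, was at 2525, 2302, 2003, and 3570 CPM in sham cortex. In HIBI cortex it was at 4394, 4502, 5669, and 3947 CPM, again with no overlap. Its log2 fold-change was 0.83 ± 0.19 (SE, n = 4 per group; edgeR adjusted p = 0.160), and counting error was small at 5508 reads or more. By DESeq2 its adjusted p and those of miR-3963 and miR-3473a were under 0.05, and by edgeR's exact and likelihood ratio tests its own and that of miR-3963. With no minimum the edgeR adjusted p was under 0.05 for miR-3968, miR-3963, miR-3473a, miR-1957a, miR-6240, and miR-6937-5p. In the other regions that setting went with smaller standard errors, as given below. MiR-1195 is left out of these lists, since it was added with its cortical values known.

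Of the members that share stretches with many genes, 6 were tested in the cortex. Apart from miR-1195 and miR-690, 2 of 4 were counted, miR-3473a and miR-5126, while miR-3473b and miR-5128 were not. MiR-1195 was at 19.7, 20.3, 12.7, and 18.9 CPM in sham and 43.2, 68.2, 25.9, and 46.5 CPM in HIBI pups, without overlap. The log2 fold-change was 1.36 ± 0.32 (SE). MiR-690 was at 33.5, 42.3, 15.6, and 29.0 CPM in sham and 81.0, 67.2, 50.3, and 32.5 CPM in HIBI pups. Pup 7 fell within the sham range, and the log2 fold-change was 0.94 ± 0.35 (SE). These values are a description, since the pair was added with them known.

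MiR-3473a was at 13.3, 12.7, 8.35, and 19.3 CPM in sham cortex and at 15.5, 80.9, 34.4, and 32.5 CPM in HIBI cortex. HIBI pup 1 lay within the sham range and the other HIBI pups above it. The log2 fold-change was 1.61 ± 0.46 (SE, n = 4; edgeR adjusted p = 0.444). MiR-3473b was not counted, with 6.42, 9.07, 13.2, and 15.6 CPM in sham and 13.9, 15.8, 16.2, and 32.1 CPM in HIBI pups (log2 fold-change 0.82 ± 0.38, edgeR adjusted p = 0.915). MiR-5126 was at 87.1, 160, 160, and 158 CPM in sham and 293, 172, 170, and 284 CPM in HIBI pups. Its groups did not overlap, although HIBI pups 4 and 5 were close to the upper sham values (log2 fold-change 0.70 ± 0.25, edgeR adjusted p = 0.782).

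The remaining counted members were not in this set. MiR-6240 was at 21.1, 77.1, 17.9, and 42.9 CPM in sham and 137, 95.2, 61.3, and 75.8 CPM in HIBI pups. Only sham pup 3 reached into the HIBI range, and the log2 fold-change was 1.20 ± 0.43 (SE, n = 4; edgeR adjusted p = 0.782). MiR-3093-5p was at 7.79, 15.4, 9.79, and 10.5 CPM in sham and 20.3, 17.3, 18.2, and 17.0 CPM in HIBI pups, without overlap (log2 fold-change 0.73 ± 0.29, edgeR adjusted p = 0.826). MiR-1957a was at 4.13, 6.95, 13.0, and 12.2 CPM in sham and 12.8, 48.4, 31.8, and 10.5 CPM in HIBI pups. HIBI pups 1 and 7 lay in the sham range, and with a sham mean of 9.06 CPM this miRNA too passed the minimum through its HIBI libraries (log2 fold-change 1.49 ± 0.52, edgeR adjusted p = 0.782).

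The HIBI and sham groups of the cortex did not overlap for 6 of 41 members, all higher after HIBI, and these were 5 of those counted plus miR-3104-3p. The groups did not overlap for 4.15% of the 410 miRNAs tested. Of the 6 members, miR-3963 and miR-3104-3p had sham means of 3.49 and 9.38 CPM and passed the minimum through their HIBI libraries. MiR-1195 was added with its values known, so the count of 6 is a description. None of the 3 members in tRNA or snoRNA genes was counted in the cortex. MiR-1983 was at 2745 to 3099 CPM in sham and 2622 to 3285 CPM in HIBI cortex (log2 fold-change -0.02 ± 0.13), and miR-3068-3p had a log2 fold-change of 0.00 ± 0.24. For the tested members opposite earlier miRNAs the log2 fold-changes were -0.04 for miR-3074-5p and -0.13 for miR-3071-3p. The median log2 fold-change was 0.18 over the 41 members and -0.02 over all miRNAs tested. The 23 members not named one by one ranged from -0.57 for miR-7019-3p to 1.40 for miR-6937-5p.

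The count of 9 in the cortex stayed between 7 and 12 when each pup was left out in turn, and every member counted in these fits was higher after HIBI. MiR-1195 and miR-690, added with their values known, are part of the count of 9 and are left out of what follows. MiR-3473a, miR-3968, and miR-6240 were counted in all 8 of these fits. MiR-3963 was counted in the 7 in which it stayed above the minimum, and fell below the minimum without pup 4. MiR-3093-5p was counted in 3 of the 8, miR-5126 in 6, and miR-1957a in 7.

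In the striatum/thalamus 4 of 54 members were counted. MiR-3473a, miR-3473b, and miR-3963 were higher after HIBI, with 2.52% of 436 miRNAs counted higher, and miR-6538 was lower, with 0.229% counted lower. None of the 54 had groups that did not overlap, against 2.29% of all tested. No member reached an adjusted p under 0.05 by edgeR's quasi-likelihood, exact, or likelihood ratio test or by DESeq2, which gave none for 2 of the 54, and 4 (7.41%) had an unadjusted p under 0.05, against 2.62% of the other miRNAs. With no minimum the edgeR adjusted p was 0.000643 for miR-3473a, with a standard error of 0.37 in place of 0.81, and 1.56e-30 for miR-6538, with 0.28 in place of 1.38.

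MiR-3473a was at 17.7, 19.6, 28.3, and 34.7 CPM in sham striatum/thalamus and at 258, 81.1, 18.5, and 10.9 CPM after HIBI. The 2 highest libraries were HIBI pups 1 and 4 and the lowest was HIBI pup 7, so the groups overlapped (log2 fold-change 1.87 ± 0.81, edgeR adjusted p = 0.980). Without pup 1 the log2 fold-change was 0.66. MiR-3473b had the same order of HIBI pups, with 12.8, 9.58, 11.9, and 17.4 CPM in sham and 61.8, 48.0, 18.01, and 10.03 CPM in HIBI pups (log2 fold-change 1.40 ± 0.54, edgeR adjusted p = 0.980). MiR-3963 was at 15.8, 10.02, 7.44, and 8.17 CPM in sham and 21.1, 42.4, 19.5, and 10.5 CPM in HIBI pups, of which only pup 7 lay within the sham range (log2 fold-change 1.17 ± 0.48, edgeR adjusted p = 0.980).

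MiR-6538 was the sole member counted lower there, and 1 library decided it. Sham pup 2 was at 4042 CPM, while the other sham pups were at 84.9, 18.8, and 231 CPM and the HIBI pups at 178, 173, 29.7, and 31.4 CPM. The log2 fold-change was -3.42 ± 1.38 (SE, n = 4; edgeR adjusted p = 0.980), and without pup 2 it was -0.12. The number of members counted moved between 1 and 10 as single pups were left out, with 1 without pup 3, 2 without pup 1, 2, 4, or 6, 8 without pup 8, 9 without pup 5, and 10 without pup 7. MiR-3968 was at 4365, 3165, 2580, and 4315 CPM in sham and 5658, 8799, 3898, and 3707 CPM in HIBI pups, and was not counted (log2 fold-change 0.61 ± 0.30, edgeR adjusted p = 0.980).

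In the cerebellum 3 of 43 members were counted. MiR-3473a and miR-3963 were higher, with 3.69% of 434 miRNAs counted higher, and miR-5126 was lower, with 4.15% counted lower. None of the 43 had groups that did not overlap, against 3.69% of all tested. No member had an adjusted p under 0.05 by any of the 4 tests, of which DESeq2 gave none for 4 of the 43, and 3 (6.98%) had an unadjusted p under 0.05, against 10.5% of the other miRNAs. With no minimum miR-6240 had an edgeR adjusted p of 0.000213, with a standard error of 0.32 in place of 0.96.

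MiR-3473a was at 17.1, 34.5, 24.01, and 20.2 CPM in sham cerebellum and at 107, 57.5, 16.6, and 29.4 CPM after HIBI (log2 fold-change 1.13 ± 0.50, edgeR adjusted p = 0.432). MiR-3963 was at 7.49, 9.94, 2.88, and 4.11 CPM in sham and 42.2, 13.3, 7.11, and 5.50 CPM in HIBI pups (log2 fold-change 1.45 ± 0.66, edgeR adjusted p = 0.432). Both were highest in HIBI pup 1. HIBI pup 7 lay within the sham range for both, and pup 5 was within it for miR-3963 and below it for miR-3473a. With a sham mean of 6.10 CPM, miR-3963 passed the minimum through its HIBI libraries. MiR-5126 ran the other way, with 692, 810, 337, and 407 CPM in sham and 359, 456, 271, and 224 CPM in HIBI cerebellum (log2 fold-change -0.78 ± 0.32, edgeR adjusted p = 0.432).

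The cerebellar counts rested on single pups and on the scaling. Without pup 1, whose library was the smallest of all, 0 members were higher and 7 were lower, miR-3963 fell below the minimum, and the log2 fold-change of miR-3473a fell to 0.53. Without pup 2 no member was counted, with pup 5 left out 6 were, and with pup 7 left out 5 were. With upper quartile scaling 0 were higher and 3 lower, and with library size alone 4 were higher and 0 lower. These scalings moved the median log2 fold-change of all 434 miRNAs by -0.13 and 0.16. MiR-6240, at 634 CPM in HIBI pup 1 and 11.9 to 57.9 CPM in the other 7 pups, had a log2 fold-change of 1.76 ± 0.96 with pup 1 and -0.93 without it. For miR-6538, at 391 CPM in HIBI pup 1 and 17.0 to 97.0 CPM elsewhere, the values were 0.91 ± 0.88 and -1.54.

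**Figure D2:**
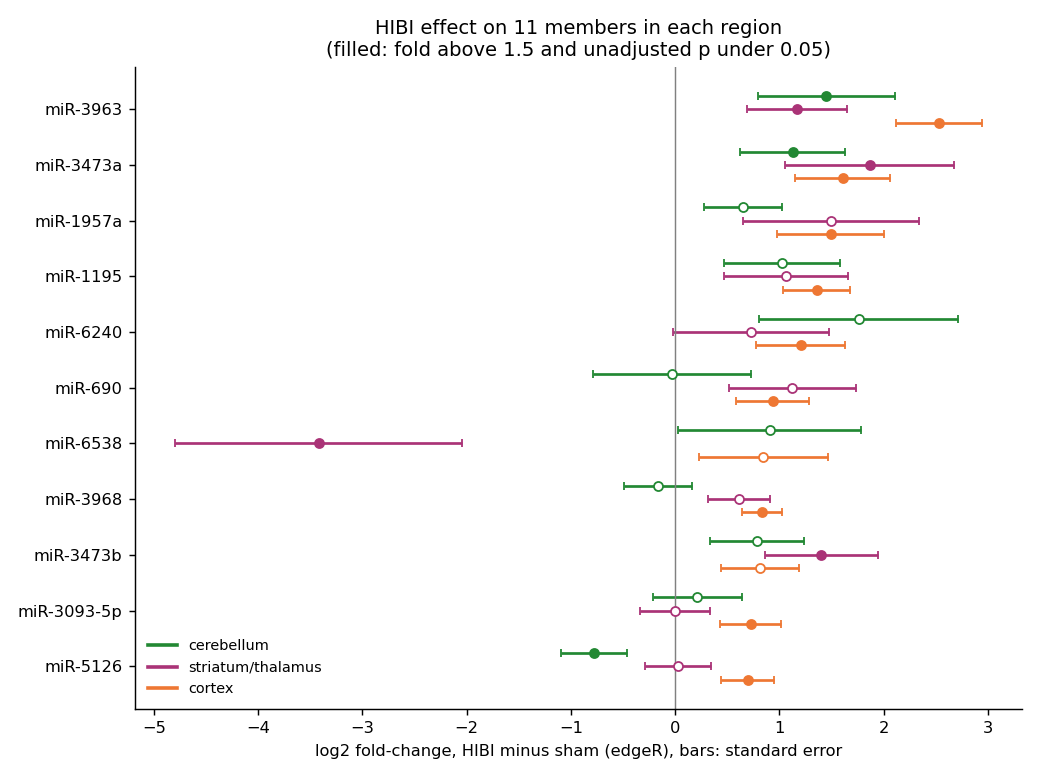
Log2 fold-change of HIBI against sham with its standard error for the 11 members counted in at least 1 region, in green for cerebellum, purple for striatum/thalamus, and orange for cortex. Filled points mark those counted in that region, and miR-3473a and miR-3963 are filled in all 3.

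In all, 11 members were counted in at least 1 region, 8 of them in 1 region, miR-5126 in 2, and miR-3473a and miR-3963 in all 3. The share of all miRNAs counted in more than 1 region is not given here, so this recurrence is a description. With a pup left out, miR-3473a was counted in 3 of 8 fits in the cerebellum and 3 of 8 in the striatum/thalamus, and miR-3963 in 3 of 7 and 4 of 8. The same pups gave the 3 regions, so the regions are not independent of each other. The effect of HIBI in the cortex and striatum/thalamus was tested against that in the cerebellum in 1 model of the 24 libraries. By edgeR 0 of 47 members had an adjusted p under 0.05 for this difference, as by DESeq2, and 5 of 47 had an unadjusted p under 0.05, namely miR-1983, miR-3057-3p, miR-3968, miR-5100, and miR-5126. Over all 435 miRNAs, 16.1% had an unadjusted p under 0.05. MiR-5126 had the smallest p of the members, with a difference of 1.20 ± 0.41 on the log2 scale (edgeR adjusted p = 0.185). The values for miR-3968 were 0.98 ± 0.38 (edgeR adjusted p = 0.226) and for miR-1983, which ran the other way, -0.66 ± 0.26 (edgeR adjusted p = 0.227).

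Whether the members rose together within a pup was examined as the correlation, across the 8 pups of a region, of each miRNA's log2 CPM after subtraction of its injury group mean. The points share libraries and members are not independent, so these correlations are descriptions. Over all pairs of members the median r was 0.10 for cerebellum, 0.19 for striatum/thalamus, and 0.06 for cortex, against 0.00, 0.02, and 0.01 over pairs of other miRNAs. An r above 0.5 was seen in 26.1%, 26.3%, and 14.9% of member pairs and in 18.9%, 20.8%, and 17.0% of the other pairs. The medians were thus low in all 3 regions, though higher over member pairs than over pairs of other miRNAs. In the cortex the share of pairs above 0.5 was lower among members than among the other miRNAs.

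For the members with stretches in many genes the median pairwise r was 0.73 over 15 pairs in the cerebellum and 0.61 over 21 pairs in the striatum/thalamus, with no pair below 0. In the cortex it was -0.06 over 15 pairs, of which 8 were below 0. Other groups of members were set beside this set. The 11 members counted after HIBI in any region had medians of 0.69, 0.61, and 0.11. They include miR-1195, miR-690, miR-3473a, miR-3473b, and miR-5126 of this set. In the striatum/thalamus the 3 members opposite earlier miRNAs had 0.69 and 3 other members with more than 75% G and C had 0.67. In the cerebellum these groups had 0.10, from 1 pair, and 0.17. There the members in tRNA or snoRNA genes had 0.37 and the remaining members with a sequence 0.13, below the 0.73 of this set. With each pup left out in turn the median for the members with stretches in many genes ranged from 0.57 to 0.80 in the cerebellum, from 0.54 to 0.81 in the striatum/thalamus, and from -0.27 to 0.09 in the cortex. MiR-1195 and miR-3473a, which were not among the pairs sharing 9 or more letters, had r = 0.95, 0.84, and 0.54 in the 3 regions in the same order. MiR-3473a and miR-3473b, which share 16, had r = 0.98, 0.95, and 0.09. MiR-3963 and miR-3968 had r = 0.98, 0.82, and 0.11.

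**Figure D3:**
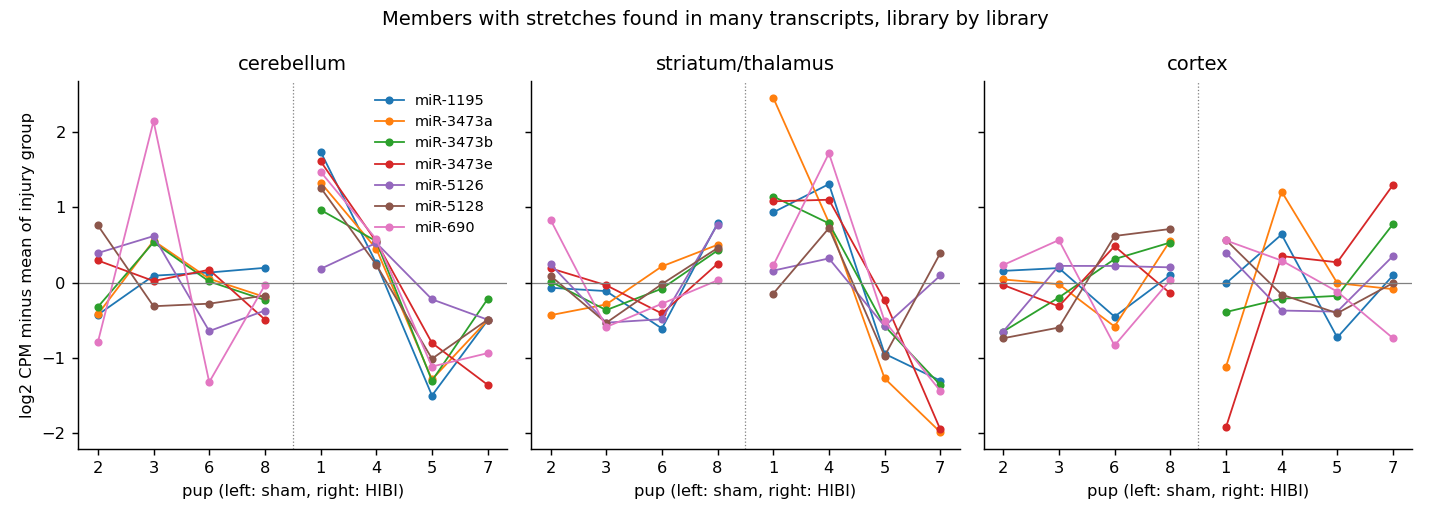
Log2 CPM of the 7 members with stretches in many genes minus the mean of the injury group, by pup, with sham pups left of the dotted line and HIBI pups right of it, in each region. In the cerebellum all 7 are above 0 in HIBI pups 1 and 4 and below 0 in HIBI pups 5 and 7. In the striatum/thalamus 5 of the 7 are, while miR-5126 is at 0.10 and miR-5128 at 0.39 in pup 7 and miR-5128 is at -0.15 in pup 1, and in the cortex this order is not seen.

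Single libraries stood out. HIBI pup 1 held the highest value of 18 of 43 members in the cerebellum (41.9%, against 22.0% of other miRNAs), 18 of 54 in the striatum/thalamus (33.3%, against 10.2%), and 16 of 41 in the cortex (39.0%, against 13.3%). Its library was the smallest in every region, and the part of depth in these highest values was not tested. HIBI pup 4 held the highest value of a further 15 of 54 in the striatum/thalamus (27.8%, against 17.3%). Fewest members were above the regional median in HIBI pup 7 for cerebellum (25.6%, against 52.4% of other miRNAs), HIBI pup 5 for striatum/thalamus (29.6%, against 55.8%), and sham pup 2 for cortex (31.7%, against 53.7%). Among sham pups, 76.7% of members were above the median in the cerebellum of pup 3 (against 46.0% of other miRNAs) and 72.2% in the striatum/thalamus of pup 8 (against 48.7%). In the cortex of HIBI pup 4, 82.9% of members were above the regional median, against 49.05% of other miRNAs. There 56.1% were above the mean of their injury group, against 51.2%.

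The share of the library taken by the 773 members was highest in the smallest libraries of the cerebellum and striatum/thalamus. In the cerebellum the smallest libraries, HIBI pup 1 with 1254185 counts and sham pup 3 with 1733810, had the highest shares, 1.63% and 1.24%, and the other 6 pups held 0.743% to 1.03%. In the striatum/thalamus HIBI pup 1 (1272808 counts) and sham pup 2 (1607306 counts) again were smallest and had the highest shares, 1.82% and 1.86%, and pup 2 is the library with miR-6538 at 4042 CPM. The part of depth in these shares was not tested. The group means were 0.983% ± 0.178 in sham and 1.07% ± 0.391 in HIBI cerebellum, and 1.40% ± 0.348 and 1.51% ± 0.262 in striatum/thalamus (SD, n = 4 pups), within the spread of the pups.

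In the cortex the smallest library, HIBI pup 1 with 1812883 counts, also had the highest share, and the 2 smallest libraries were both HIBI. Further on, the order of depth and that of share differed. HIBI pup 5, with 3049198 counts, had the second highest share, and sham pup 2, the third smallest with 2160270 counts, was below every HIBI pup. The share was 0.915%, 0.896%, 0.866%, and 0.949% in the sham pups and 1.22%, 1.15%, 1.20%, and 1.11% in the HIBI pups, so the groups did not overlap. The part of depth in this difference was not tested. The difference of the means was 0.263 percentage points, and without miR-3968 it was 0.0535.

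**Figure D4:**
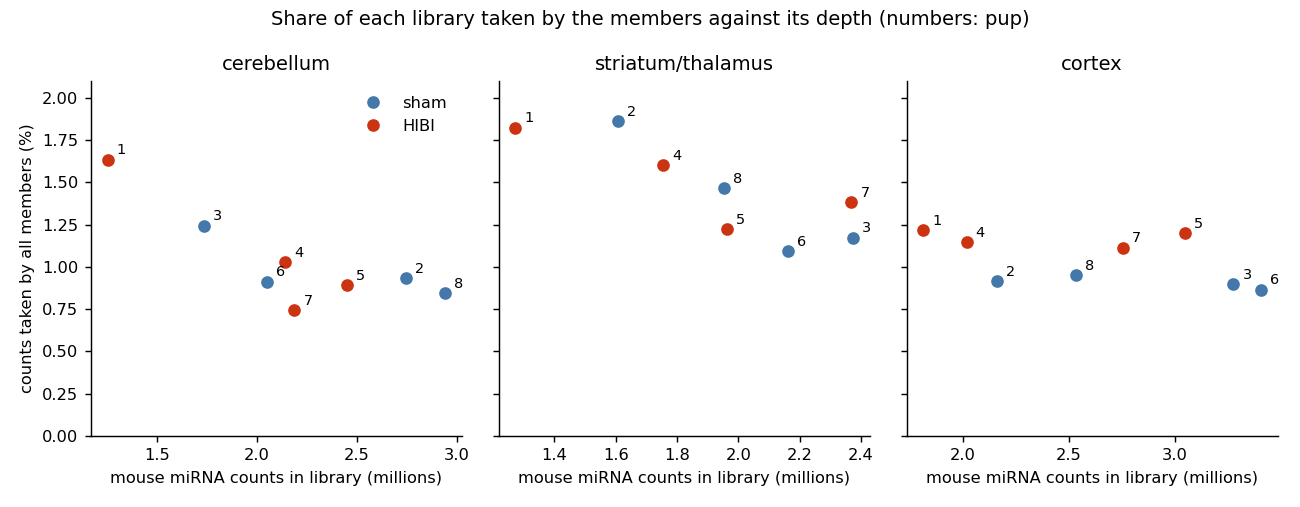
Percent of mouse miRNA counts taken by the 773 members against the mouse miRNA counts of the library, 1 point per pup with its number, sham in blue and HIBI in red. The smallest library is highest or second highest in every region, and in the cortex all HIBI pups (1.11% to 1.22%) lie above all sham pups (0.866% to 0.949%).

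Levels by region were compared over all 24 libraries to ask where the late entries are expressed. Of the 60 members, 35 were above the minimum in all 3 regions, 13 in the striatum/thalamus only, 3 in the cerebellum only, and 1 in the cortex only. The mean was highest in the striatum/thalamus for 37 of 60 members (61.7%) and for 29.7% of 418 other miRNAs, chosen by the same minimum. The 37 take in the 13 that passed the minimum there only, which are highest there through that choice. The share is thus a description. In the tests, a difference had an adjusted p under 0.05 and a fold-change above 1.5. Compared with the cerebellum, 15 of 47 members were higher and 4 lower in the striatum/thalamus, where 31.3% of all 435 miRNAs were higher and 31.3% lower. In the cortex 6 were higher and 10 lower than in the cerebellum, with 27.4% and 28.5% of all. Compared with the striatum/thalamus, 2 were higher and 20 lower in the cortex, with 19.3% and 24.4% of all. The 15 higher and the 20 lower take in members that passed the minimum through their striatum/thalamus libraries alone, such as miR-7080-5p and miR-3102-5p.2-5p. Counts without such members are not given here, so the 15 and the 20 are descriptions.

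The striatum/thalamus had 4 members that were higher in each of its libraries than in any library of the other regions, and the other regions had 0. Over the 478 miRNAs above the minimum in a region, 3.35% met this condition for the striatum/thalamus, 8.58% for the cerebellum, and 2.51% for the cortex. Of the 4 members, miR-7080-5p and miR-3102-5p.2-5p passed the minimum through their striatum/thalamus libraries alone. MiR-3099-3p and miR-6944-3p were above it in every region. The count of 4 is thus a description. The sequences of 3 members with regional differences are given for the values that follow, miR-7080-5p at chr8:123130106-123130128 (plus), miR-3099-3p at chr7:6803638-6803659 (plus), and miR-2137 at chrX:72992113-72992133 (plus).
miR-7080-5p: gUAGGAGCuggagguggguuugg
miR-3099-3p: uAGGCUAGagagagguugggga
miR-2137: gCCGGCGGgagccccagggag

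These 3 share no seed. MiR-7080-5p, in an exon of the copine gene Cpne7, had the largest fold of these, with 22.0 to 57.6 CPM in the striatum/thalamus, 1.80 to 9.03 CPM in the cortex, and 0 to 4.11 CPM in the cerebellum. It passed the minimum through its striatum/thalamus libraries alone, as did miR-3102-5p.2-5p, so that no test is given for either. MiR-3102-5p.2-5p, in an exon of Arhgef17, was at 26.4 ± 10.6 CPM in the striatum/thalamus, 8.18 ± 3.19 in the cortex, and 5.02 ± 2.73 in the cerebellum (SD, n = 8 pups). MiR-3099-3p, in an intron of the imprinted gene Usp29, was at 1298 ± 291, 465 ± 56.5, and 612 ± 134 CPM in the same order. MiR-6944-3p, in an intron of the drebrin gene Dbn1, was the other, at 264 ± 97.6, 79.5 ± 25.1, and 65.6 ± 22.6 CPM.

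Fewer members were highest in the cerebellum. MiR-2137, in an intron of Zfp185 and 85.7% G and C, was at 1512 ± 662 CPM there, against 590 ± 308 for striatum/thalamus and 277 ± 80.1 for cortex (SD, n = 8 pups; log2 cortex minus cerebellum -2.42 ± 0.27, edgeR adjusted p = 4.12e-08). MiR-1955-5p, in an intron of Phf21a, was at 26.6 ± 9.12, 7.501 ± 4.61, and 10.45 ± 6.26 CPM, and miR-5099 at 21.7 ± 7.70, 8.20 ± 2.78, and 10.1 ± 1.76 CPM. For both, the striatum/thalamus and cortex did not differ beyond their spread (edgeR adjusted p = 0.293 and 0.255).

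MiR-1983, which overlaps a tRNA gene, was lower in the cerebellum, at 1650 ± 501 CPM, than in the striatum/thalamus (2870 ± 588) and the cortex (2941 ± 242), which did not differ beyond their spread (edgeR adjusted p = 0.830). MiR-3059-5p, in an intron of Mgat4c, was at 257 ± 48.1 CPM in the cerebellum, 562 ± 99.6 in the cortex, and 777 ± 215 in the striatum/thalamus. MiR-3074-5p and miR-3068-3p were the 2 members higher in the cortex than in the striatum/thalamus, at 387 ± 63.4 against 236 ± 22.6 CPM and 55.2 ± 10.3 against 34.4 ± 9.67 CPM (edgeR adjusted p = 9.73e-05 and 0.0215). Of the 7 members with stretches in many genes, miR-1195, miR-690, and miR-3473a were not called in any comparison of regions, and neither were miR-3963, miR-3968, and miR-6240. MiR-5126 was lower in the cortex, at 190 ± 73.8 CPM, than in the cerebellum (438 ± 199) and the striatum/thalamus (454 ± 155; edgeR adjusted p = 0.000157 and 9.94e-05). MiR-5128 was higher in the striatum/thalamus than in the cerebellum, at 18.5 ± 10.2 against 9.54 ± 5.55 CPM (edgeR adjusted p = 0.0283). MiR-3473b and miR-3473e were lower in the cortex than in the cerebellum, at 15.7 ± 8.01 against 33.9 ± 19.1 CPM and 9.02 ± 6.13 against 20.2 ± 14.7 CPM (edgeR adjusted p = 0.00805 and 0.0317).

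**Figure D5:**
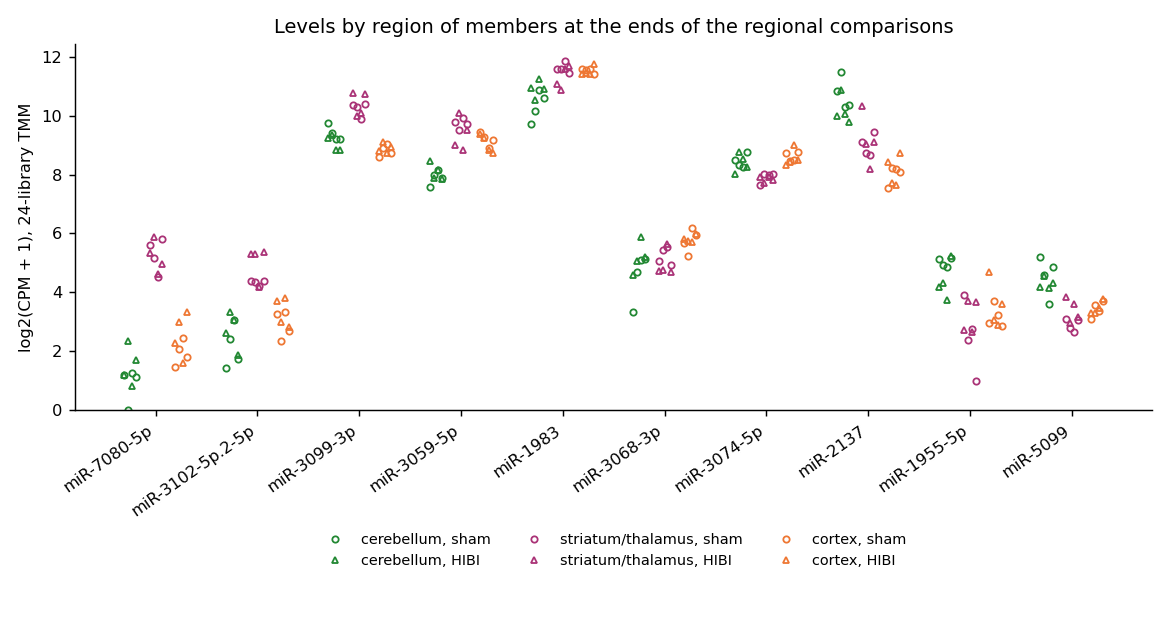
Log2(CPM + 1) in each of the 24 libraries for 10 members, with cerebellum in green, striatum/thalamus in purple, and cortex in orange, circles for sham and triangles for HIBI pups. MiR-7080-5p, miR-3102-5p.2-5p, and miR-3099-3p are highest in the striatum/thalamus, and miR-2137, miR-1955-5p, and miR-5099 have their highest means in the cerebellum.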

How the data were processed

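Small RNA libraries were made from 200 ng of RNA from 3 brain regions of 8 pups. Per the labels and the study's methods, the authors aligned reads with Bowtie2 to mature mouse miRNAs of miRBase and deposited raw counts per miRNA for each library. Versions, the miRBase release, and the rule for reads matching several miRNAs are not given in the sources used here. The tables also hold the authors' fold-changes, average levels, p-values, and false discovery rates, which were not used. Of 1551 entries, 20 were castor bean miRNAs (84 counts, 0.000156% of all) and were left out of totals and tests.

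Counts were TMM-scaled and fitted with the quasi-likelihood test of edgeR 4.0.16 (R 4.3.3) over every mouse entry with a mean above 10 CPM, within each region for HIBI against sham and over 24 libraries for regions, with Benjamini-Hochberg adjustment over all entries tested. The self-test used simulated counts. DESeq2 1.42.0, other scalings, minimums, and tests, and leaving out each pup were alternatives. Single members were also given a two-sided exact permutation test on log2(CPM + 1). Replicates are separate pups. Depth was 1254185 to 3406624 counts, and no libraries of a group agreed within sampling noise (lowest chi-square per degree of freedom 17.0). Counting error alone does not cover the spread between pups.

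The same pup gave all 3 regions, so pup numbers pair libraries across regions. Deviations from group means correlated within a pup with median r = 0.18, 0.32, and 0.26 for the 3 pairs of regions, over 0.1 in 6, 7, and 7 of 8 pups. Within a region a pup is in 1 group, so no pairing applies.

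The members, lists, and tests were chosen with earlier results of these data known. Values by library were given for members counted in a region, the 3 most abundant in each region, those with the largest regional differences, and those the study names. MiR-6944-3p, miR-3071-3p, miR-3104-3p, miR-3473e, and miR-5128 were named after their values were seen. Mature sequences and positions are from RefSeq (GRCm38.p6). Shared stretches were searched in annotated transcripts, without a repeat annotation, and the search did not find the tRNA gene that miR-1983 overlaps. The count over miRNAs with both group means above the minimum was added after seeing the data.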

Additional observations from a re-analysis of the deposited data

Results flagged for a closer look

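Among 112 groups of 4 pups examined for the members named in full, 9 held 1 pup far from the other 3, where chance gives about 1 in 20, or 5.6 groups. No explanation was tested. MiR-6538 was at 4042 CPM in the striatum/thalamus of sham pup 2, with 18.8 to 231 CPM in the other sham pups, and at 391.2 CPM in the cerebellum of HIBI pup 1, with 17.0 to 24.3 CPM in the others. MiR-6240 was at 634.2 CPM in the same cerebellar library, with 11.9 to 43.3 CPM in the others. MiR-690 was at 168.9 CPM in the cerebellum of sham pup 3, against 14.4 to 36.6 CPM. MiR-3473b was at 32.11 CPM in the cortex of HIBI pup 7, against 13.9 to 16.2 CPM, and miR-3068-3p at 49.17 CPM in the striatum/thalamus of HIBI pup 5, against 24.3 to 25.3 CPM. The other 3 were low values of sham pup 2. MiR-5126 was at 87.1 CPM in its cortex, against 158 to 160.2 CPM, miR-2137 at 187.5 CPM in its cortex, against 275 to 279 CPM, and miR-3074-5p at 208.8 CPM in its striatum/thalamus, against 265 to 270.0 CPM.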

How the results depend on the processing

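Depth limited the members near the minimum, whose values rested on few reads in the smallest libraries. With a minimum of 1 CPM, the members counted after HIBI numbered 10 of 184 for cerebellum, 9 of 215 for striatum/thalamus, and 20 of 175 for cortex. With no minimum they numbered 38 of 609, 32 of 592, and 45 of 594. More members were then tested, and some had smaller standard errors than in the main fit. The part of each in these counts was not tested. In the cortex the counted members were 17 higher and 3 lower at 1 CPM, and 30 higher and 15 lower with no minimum. In the striatum/thalamus DESeq2 and edgeR's exact test each counted 8 of 54, for which the cause was not tested. For these counts, and for those between regions below, shares over all miRNAs are not given here. The counts are thus descriptions. With each pup left out in turn the counts ranged from 0 to 7, 1 to 10, and 7 to 12. Between regions, with a minimum of 1 CPM, 35 members differed between cortex and cerebellum, 61 between striatum/thalamus and cerebellum, and 40 between cortex and striatum/thalamus. Leaving out a pup gave 14 to 18, 18 to 23, and 17 to 23, and the replicate block gave 15, 23, and 23, with 0 for the injury effect between forebrain and cerebellum, so that the paired fit changed no count by more than 1.5 times. The difference in summed share ranged from -0.0953 to 0.2015, 0.005482 to 0.2652, and 0.2465 to 0.2813 percentage points without single pups, and in the cortex was 0.05349 without miR-3968. The median correlation of member pairs in the cerebellum was 0.1639 with library size alone and 0.288 above 50 CPM, and in the cortex 0.114 without centring. Without single pups it ranged from 0.05226 to 0.1581, 0.1189 to 0.2751, and 0.006875 to 0.1051. In the cerebellum the log2 fold-change of miR-6240 ranged from -0.9347 without pup 1 to 2.158, and that of miR-6538 from -1.539 without pup 1 to 1.261. Leaving out pups for the members that share 16 bases with many genes was chosen after seeing the data.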
